A study of Mus musculus with 9 samples.

Results

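Natural killer (NK) cells were examined in the femoral bone marrow of 9 mice, in which RNA of single cells had been sequenced as 1 library per mouse. A barcode was counted as an NK cell if it held at least 3 UMIs of Nkg7, Gzma, and Ccl5 together, at least 1 UMI of Ncr1, Klre1, and Klrd1 together, and no UMI of Cd3e, Cd3d, Cd3g, or Siglech. A UMI is a molecular tag that counts 1 captured RNA molecule. Of 39051 barcodes that reached 1000 UMIs and 500 genes and stayed within 10% mitochondrial UMIs, 527 met this rule, and 38524 served as the other marrow cells. The mice were female, 3 each of the inbred strains NZB (New Zealand Black) and NZW (New Zealand White) and of NZBWF1, their first-generation cross, which develops a disease like human lupus. They came from 1 supplier in a single delivery at 7 to 8 weeks of age and were studied at 9 to 10 weeks, with no treatment named in the labels. Each mouse is a replicate, and the labels name no batch. No protein was measured, so an NK cell below is a cell defined by these transcripts.

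NK cells are innate lymphocytes that kill virus-infected and tumour cells by releasing granules of perforin and granzymes. Instead of a rearranged antigen receptor they carry germline-encoded receptors, among them the lectin-like Ly49 family, the heterodimers of CD94 with NKG2 proteins, and NKp46. Many of these bind MHC class I molecules and hold the cell back, while others bind viral or stress-induced ligands and activate it through adaptors such as DAP12. NK cells develop in the bone marrow under interleukin-15, with Eomes and T-bet as lineage factors, and pass from CD27-positive dividing stages to granule-rich cells that leave for the blood.

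Promoters of 4 cytotoxic or receptor genes are shown because these genes mark the cells described here. They are Ncr1 (NKp46), Nkg7 (a membrane protein of cytotoxic granules), Gzma (granzyme A), and Prf1 (perforin). Each window spans 250 bases before to 50 bases after the start of the gene in RefSeq GRCm38.p6, on the strand of the gene. Capitals mark the RUNX motif TGTGGT or its reverse complement ACCACA, and, in Nkg7, the T-box motif AGGTGTGA, searched on both strands. The windows are chr7:4337465-4337764 on the plus strand for Ncr1, chr7:43436888-43437187 on the plus strand for Nkg7, chr13:113100932-113101231 on the minus strand for Gzma, and chr10:61297586-61297885 on the plus strand for Prf1.
Ncr1: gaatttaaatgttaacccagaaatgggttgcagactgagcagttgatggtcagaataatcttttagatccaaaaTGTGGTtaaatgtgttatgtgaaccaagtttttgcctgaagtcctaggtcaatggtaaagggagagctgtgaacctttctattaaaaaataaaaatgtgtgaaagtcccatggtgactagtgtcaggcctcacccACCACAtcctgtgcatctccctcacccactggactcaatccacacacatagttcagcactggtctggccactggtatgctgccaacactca
Nkg7: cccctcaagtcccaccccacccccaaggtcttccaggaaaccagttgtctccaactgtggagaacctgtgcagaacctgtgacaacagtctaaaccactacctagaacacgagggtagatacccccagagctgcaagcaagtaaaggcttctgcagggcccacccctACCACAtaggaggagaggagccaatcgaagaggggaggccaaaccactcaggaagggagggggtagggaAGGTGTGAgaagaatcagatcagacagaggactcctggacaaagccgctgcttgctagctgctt
Gzma: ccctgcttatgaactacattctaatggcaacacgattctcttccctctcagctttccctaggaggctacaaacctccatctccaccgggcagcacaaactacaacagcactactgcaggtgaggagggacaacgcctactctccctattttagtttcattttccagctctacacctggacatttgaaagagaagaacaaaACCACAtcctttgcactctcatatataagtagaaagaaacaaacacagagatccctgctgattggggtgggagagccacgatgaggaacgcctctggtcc
Prf1: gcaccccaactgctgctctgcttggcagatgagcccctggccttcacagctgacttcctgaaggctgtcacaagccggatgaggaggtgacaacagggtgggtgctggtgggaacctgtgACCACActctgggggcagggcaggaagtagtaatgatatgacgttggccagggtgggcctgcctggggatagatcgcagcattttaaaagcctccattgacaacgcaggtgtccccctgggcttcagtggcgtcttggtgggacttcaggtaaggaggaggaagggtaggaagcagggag

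The Ncr1 window held 2 RUNX matches and the other windows held 1 each. Of 32851 promoter windows of the same length, 16.8% held the RUNX motif and 1.28% the T-box motif. Among the genes of the rule and the 15 genes outside it with the greatest ratio to other marrow cells at 100 CPM or more, 18 of 21 had a window, of which 11 held the RUNX motif and 2 the T-box motif in any of their windows. A gene can have more than 1 window, as Ncr1 has 2. Shares of windows and shares of genes are therefore not on the same scale, and no enrichment was tested. A match of letters is a description, and binding was not measured.

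Each mouse gave between 40 and 81 NK cells. The NZB mice gave 55, 40, and 49, the NZW mice 57, 59, and 53, and the NZBWF1 mice 56, 77, and 81. The median NK cell of a mouse held between 1338 and 1947 UMIs and between 776 and 985 genes, and all NK cells of a mouse together held between 91359 and 241138 UMIs. No barcode sequence occurred in NK cells of more than 1 library. RNA of other lineages was present in some of them. In 127 of the 527 cells, at least 10 UMIs came from 8 marker lists of other lineages, with 6 to 30 such cells per mouse, and 44 cells held more than 50 UMIs of the neutrophil transcripts S100a8 and S100a9. The summed neutrophil markers took between 6128 and 63157 CPM of a mouse's NK cells, where CPM scales the UMIs of a mouse's NK cells to the same total, and between 285 and 974.7 in the remaining 400 cells. Results are therefore also given for these 400 cells, called the cells with few UMIs of other lineages, a limit that was added after the data had been seen.

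The limits of the rule cut through continuous values. Of the barcodes that met every other limit, 8 stood at exactly 3 UMIs of Nkg7, Gzma, and Ccl5 and 9 stood just outside at 2, whereas the median NK cell held 18. For Ncr1, Klre1, and Klrd1, 39 cells stood at 1 UMI and 1287 barcodes at 0, and the median NK cell held 5. The barcodes at 0 were a different population, since 0.233% of them held Klrb1c (NK1.1) against 60.5% of the NK cells. The limit on Cd3 cut closest, as 477 barcodes met the rest of the rule but held UMIs of Cd3 genes, 136 of them a single one. Ncr1 was found in 58.1% of those 477 barcodes, and 259 held Ncr1 without the T-cell receptor alpha constant gene Trac. A further 9 barcodes were left out for Siglech.

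The label was borne out by markers that the rule did not use. Klrb1c was detected in 60.5% of the 527 cells, the lineage factor Eomes in 47.8%, and Tyrobp, which encodes the adaptor DAP12 and is also used by myeloid cells, in 96.2%, against 82.2% of the 1287 barcodes without UMIs of Ncr1, Klre1, and Klrd1. Of 11 T-cell markers 7 were at 0, of which the 3 Cd3 genes were at 0 by the rule and Cd6, Cd4, Cd8a, and Cd8b1 were not part of it. Trac was found in 3.04% and Cd5 in 1 cell. Other T-cell transcripts were present, with Trbc2 in 40.4% and the T-cell receptor delta constant gene Trdc in 21.3% of the cells, and with Cd2 at 241 and Cd28 at 67.0 CPM pooled over all NK cells. S100a8 was found in 43.6%, beside the neutrophil values given above.

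Among genes outside the rule with at least 100 CPM in the NK cells, the 15 with the greatest ratio to other marrow cells were led by Ly49 genes. These values describe the cells that the rule chose and carry no test. The other marrow cells include the 477 barcodes with Cd3 UMIs that met the rest of the rule. Klra4 (Ly49D, an activating receptor) stood at 524 CPM pooled over all NK cells, 212-fold above the other marrow cells. Klra7 (Ly49G) followed with 303 CPM and 186-fold, and Klri2, a lectin-like receptor that pairs with Klre1, with 151 CPM and 173-fold. Itga2, the integrin known as DX5, was 162-fold above the other cells, Prf1 139-fold, Klra8 (Ly49H, the activating receptor for a cytomegalovirus protein) 134-fold, and Eomes 126-fold. The list also held Klrb1c, Klrb1a, Klra1, Klrc2, Samd3, Klrk1 (NKG2D), Serpinb9 (an inhibitor of granzyme B), and Arl4d, a small GTPase. Against 708 T cells defined by Cd3e or Cd3g, a T-cell receptor transcript, and few UMIs of other lineages, the ratios of the 15 genes were 1.51 to 5.06, with Samd3 lowest and Klra7 highest. This class can hold cells that resemble NK cells. Trbc2 was found in 40.4% of the NK cells, and 259 barcodes with Cd3 UMIs held Ncr1 without Trac. The part of such cells in these ratios was not tested.

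**Figure D1:**
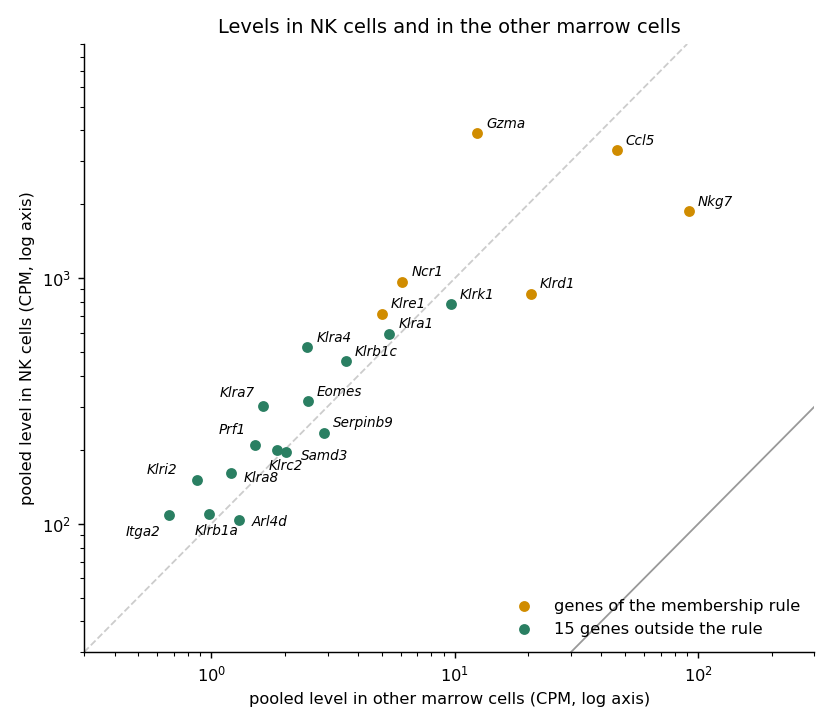
Pooled level in the 527 NK cells (vertical axis, CPM, log scale) against the 38524 other marrow cells (horizontal axis, log scale) for the 6 genes of the membership rule (orange) and the 15 genes outside it with the greatest ratio at 100 CPM or more (green). The solid line marks equal levels and the dashed line a 100-fold ratio. Gzma stood highest at 3893 CPM, and Klra4 had the greatest ratio among the green points.

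Genes of the rule had to be high and are given as levels. Gzma stood at 4257, 2397, and 4224 CPM in NZB, 4195, 3605, and 3975 in NZW, and 4818, 3606, and 3877 in NZBWF1. Ncr1 stood at 1046, 514, and 1014 in NZB, 1196, 922, and 1100 in NZW, and 1215, 995, and 784 in NZBWF1. The second NZB mouse was lowest for both genes, and 15 of its 40 NK cells held at least 10 UMIs of other lineages. Pooled over mice, Ccl5 (a chemokine) stood at 3315, Nkg7 at 1872, Klrd1 (CD94) at 863, and Klre1 at 717 CPM.

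The 10 listed genes of type 1 innate lymphoid cells, tissue-resident relatives of NK cells, spanned 2.42 to 425 CPM. Ltb (lymphotoxin beta) was the highest, 2.94-fold above the other marrow cells, and Rora stood at 57.3 CPM, 16.8-fold above them. The defining surface markers were lower. Itga1 (CD49a) stood at 2.42 and Cxcr6 at 7.27 CPM, where T cells held 190 of Cxcr6. Tnfsf10 (TRAIL) stood at 16.96 and Il7r at 46.8, the latter at 16.2 in the cells with few UMIs of other lineages. Klrg1, a receptor of late mature NK cells, was low at 13.7 CPM, Gzmb (granzyme B) stood at 44.4, and Tbx21 (T-bet) at 83.2.

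The first question was whether the strains differed in how many NK cells their marrow held. NK cells made up 2.24%, 0.783%, and 1.49% of the kept barcodes of the NZB mice. The NZW mice held 1.32%, 1.15%, and 1.07%, and the NZBWF1 mice 2.18%, 1.39%, and 1.43%. The NZB mice included both the highest and the lowest share, so the strains overlapped. NZB averaged 1.51 ± 0.729%, NZW 1.18 ± 0.129%, and NZBWF1 1.66 ± 0.449% (SD, n = 3 mice each; F = 0.733, p = 0.5, exact permutation over 280 partitions of the mice, 2-sided). NZBWF1 exceeded the mean of the 6 parental mice, 1.34 ± 0.501%, by 0.322 percentage points (p = 0.393, exact permutation over 84 splits). With the barcodes that held Cd3 UMIs included, the means were 3.24%, 2.01%, and 3.14% in NZB, NZW, and NZBWF1. The order of the means depended on the quality limits. In NZB replicate 2, 99 of 139 barcodes that met the marker rule failed a limit. At 500 UMIs and 250 genes this mouse stood at 1.59%, and the means were 1.63%, 1.16%, and 1.46% in NZB, NZW, and NZBWF1. NZBWF1 then exceeded the parents by 0.0636 percentage points (p = 0.821, exact permutation). No difference in share was detectable with 3 mice per strain, where the smallest p that the 280 partitions allow is 0.00357 (exact permutation).

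**Figure D2:**
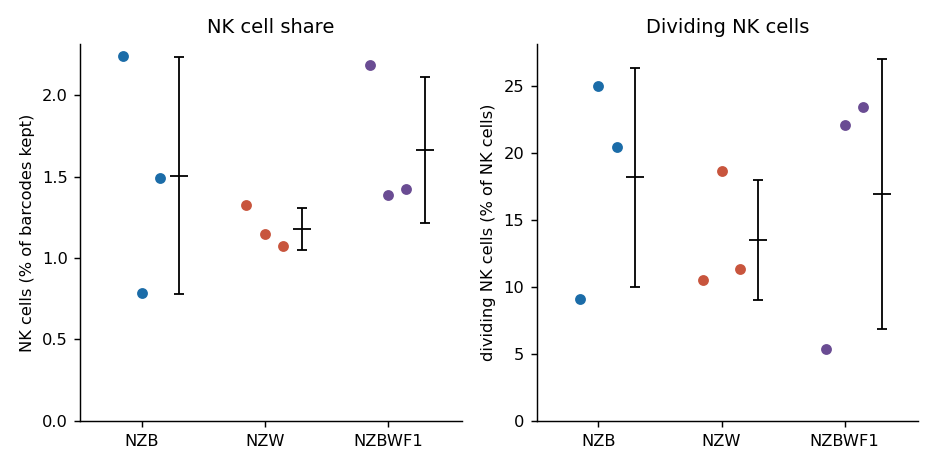
Share of NK cells among kept barcodes (vertical axis, percent) in NZB, NZW, and NZBWF1. Each point is 1 mouse and each bar gives the mean with its SD (n = 3 mice). The 3 strains overlap, and the NZB mice span the widest range, from 0.783% to 2.24%.

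Differences in expression were then tested on the UMIs summed over the NK cells of each mouse, with the edgeR quasi-likelihood method and the Benjamini-Hochberg correction over the 2281 genes that passed the filter on low counts. Between NZB and NZW, 28 genes passed an adjusted p of 0.05, which is 1.23% of the genes tested, with 14 higher in each strain (0.614%). NZBWF1 differed from NZB in 8 genes (0.351%, with 5 higher or 0.219% and 3 lower or 0.132%), from NZW in 12 genes (0.526%, with 9 higher or 0.395% and 3 lower or 0.132%), and from the mean of the parents in 6 genes (0.263%, with 5 higher or 0.219% and 1 lower or 0.0438%). The mean of the parents is a mean on the log scale, so a cross midway between a parent near 0 and a high parent lies above it by construction. This was so for 4 of the 6 genes (Ftl1-ps1, Ly6a, Tpm3-rs7, and Trbc1), which held 0 or 1 UMI in one parent, and their NZBWF1 means lay between the parental means, at a log2 of 0.05 to 0.89 above the arithmetic mean of both parents. Iglc2 and Lgals3 were the other calls. These 4 comparisons share mice, so their lists are not independent of each other, and together they held 30 distinct genes. At an unadjusted p below 0.05 the counts were 217, 156, 151, and 127. By CPM, the 3 mice of 1 strain stood all above those of the other in 15.3% of tested genes for NZB against NZW. The shares were 12.4% for NZBWF1 against NZB and 12.2% against NZW. Among the 400 cells with few UMIs of other lineages, 1671 genes could be tested and 45, 8, 13, and 7 were called, of which 23, 4, 9, and 4 were called in all 527 cells as well. In bulk sums of this kind, fewer cells with a transcript and less transcript per cell cannot be told apart.

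Over all members, no listed gene by which NK cells recognise and kill passed the test between strains, where 1.23% of all tested genes or fewer did in each comparison, so the count of 0 is near the background. None of 14 tested receptors (of 30 listed genes in the files), 10 adaptors and kinases, 9 granule genes, 5 cytokines and chemokines, 7 cytokine receptors and signalling genes, 11 transcription factors, or 12 homing genes was called by edgeR in any of the 4 comparisons, nor by DESeq2. Of these 68 genes, 15 (22.1%, against 9.51% of all tested genes) had an unadjusted p below 0.05 between NZB and NZW with edgeR. With DESeq2, 10 did (14.7%), and its share over all genes is not given here. For NZBWF1 against NZB, NZW, and the mean of the parents, 9 (13.2%), 6 (8.82%), and 2 (2.94%) did so with edgeR. The shares of all tested genes there were 6.84%, 6.62%, and 5.57%. In the cells with few UMIs of other lineages, Klrb1f, Slamf6, and Xcl1 were among the listed genes called, with the values given further on. Between NZB and NZW the median log2 difference was 0.35 for receptors, -0.11 for adaptors, 0.24 for granule genes, -0.02 for transcription factors, and -0.14 for homing genes, where the median of all tested genes was -0.00. Over all 15 lists, 128 of 265 genes in the files were tested, and 13 were called between NZB and NZW (10.2% against 1.23% of all tested genes), 6 higher and 7 lower in NZB. The called members lay in the lists of interferon-stimulated genes, MHC class I, ferritin, T-cell receptor loci, and NK maturation. The lists hold genes that earlier results of these data had named, so their counts are a description.

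Receptors came closest to the threshold in Klra8. It stood at 241, 131, and 263 CPM in NZB, 102, 83.8, and 83.2 in NZW, and 273, 170, and 133 in NZBWF1. Every NZB mouse was above every NZW mouse, a separation found in either direction for 15.3% of all tested genes. The log2 difference was 1.25 (SE 0.33, edgeR adjusted p = 0.0689). Klra7 stood at 546, 350, and 469 in NZB and 205, 252, and 305 in NZW (log2 difference 0.86, edgeR adjusted p = 0.163), and Klra4 at 751, 482, and 657 against 433, 412, and 379 (0.63, edgeR adjusted p = 0.210). Of the 14 tested receptors 7 had an unadjusted p below 0.05 between these strains with edgeR, against 9.51% of all tested genes. Ly49 genes are close copies of each other and vary between strains, so reads may have been split or lost in counting, and their levels are uncertain. Runx3, a factor of the lineage, stood at 277, 186, and 253 in NZB, 78.7, 122, and 148 in NZW, and 256, 285, and 145 in NZBWF1 (log2 NZB over NZW 1.06, edgeR adjusted p = 0.128).

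UMIs of several Ly49 genes were found together in single cells. With each cell thinned to 1000 UMIs, Klra1 (Ly49A) was detected in 43.5% of the NK cells, Klra4 in 39.8%, Klra7 in 23.5%, Klra8 in 16.1%, and Klra9 (Ly49I) in 10.8%. None of the 5 genes was detected in 28.1% of the cells, 1 gene in 30.2%, 2 genes in 26.4%, 3 genes in 11.0%, 4 genes in 3.98%, and all 5 in 0.380%. Without thinning, the share with none was 18.4% and the share with all 5 was 1.90%, so these shares depend on depth. Among 8310 B cells, which should lack these genes, a UMI was found in 0.578% of thinned cells for Klra1 and in at most 0.108% for each of the others, and 0.0481% held 2 or more. Splitting of reads among close copies can also place several of these genes in a cell, and its part was not tested. Klra8 was detected in 29.1%, 15%, and 24.5% of the cells in NZB, 12.3%, 6.78%, and 7.55% in NZW, and 17.9%, 18.2%, and 14.8% in NZBWF1, with every NZW mouse below all others.

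Several transcripts were present in the NK cells of one parent and at or near 0 in the other. Trbc1, a constant region of the T-cell receptor beta chain (chr6:41538218-41539881 in GENCODE vM21, build GRCm38), stood at 420, 197, and 310 CPM in NZB, at 0 in each NZW mouse, and at 306, 195, and 141 in NZBWF1. With 98 UMIs in NZB, 0 in NZW, and 110 in NZBWF1, it was at least 38.7-fold higher in NZB than in NZW (edgeR adjusted p = 1.82e-06) and at least 23.9-fold higher in NZBWF1 than in NZW (edgeR adjusted p = 3.45e-05), taking a floor of 3 UMIs over the strain. The neighbouring Trbc2 had the opposite order, at 259, 164, and 103 in NZB, 480, 259, and 444 in NZW, and 405, 340, and 228 in NZBWF1 (log2 NZB over NZW -1.14, edgeR adjusted p = 0.0836). Both genes are near-identical in sequence, and their sum, added after the values had been seen, averaged 485 ± 171 in NZB, 394 ± 118 in NZW, and 538 ± 171 in NZBWF1 (SD, n = 3; exact permutation p = 0.543 with 280 partitions). The reason for the 0 of Trbc1 in NZW was not tested.

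Copies of ferritin light chain also stood in opposite order in the parents. Ftl1, the annotated gene (chr7:45457944-45459884), stood at 1583, 1335, and 929 CPM in NZB, 15.7, 38.1, and 83.2 in NZW, and 752, 560, and 1078 in NZBWF1. Ftl1-ps1, listed as a further copy (chr13:74399694-74407346), stood at 8.94, 0, and 0 in NZB, 1243, 1776, and 1266 in NZW, and 744, 540, and 933 in NZBWF1. Each copy therefore separated the parents without overlap, in opposite directions, with the mean of the cross between them. For Ftl1 the cross overlapped NZB, as an NZBWF1 mouse at 1078 stood above an NZB mouse at 929. The log2 difference of Ftl1 between NZB and NZW was 4.84 (SE 0.46, edgeR adjusted p = 0.000155). For Ftl1-ps1, NZB held 1 UMI in all, and the ratio of NZW to NZB was 446 with a 95% counting interval of 79.7 to 17658 (edgeR adjusted p = 1.71e-10). The sum of both copies, also added afterwards, averaged 1286 ± 334 in NZB, 1474 ± 298 in NZW, and 1536 ± 457 in NZBWF1 (SD, n = 3; exact permutation p = 0.704 with 280 partitions). Because the copies are near-identical, their reads may have been split in counting. Fth1, the ferritin heavy chain, and the other tested members of the iron list were not called.

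Interferon-stimulated genes differed in both directions. Of 16 tested members 3 were higher in NZB than in NZW and 2 were lower (0.614% of all tested genes each way), with a median log2 difference of -0.17. Ly6a (Sca-1, a surface antigen, chr15:74994877-74998031) stood at 277, 164, and 329 CPM in NZB, at 0, 7.62, and 0 in NZW, and at 215, 260, and 245 in NZBWF1. A single UMI was found in all NZW cells, so that NZB exceeded NZW by a ratio of 95.8 (95% counting interval 16.7 to 3832, edgeR adjusted p = 6.94e-08) and NZBWF1 exceeded NZW by 89.3 (15.8 to 3553, edgeR adjusted p = 1.77e-07). NZBWF1 and NZB overlapped (log2 difference -0.11, edgeR adjusted p = 0.945). Ifi202b, a nuclear protein of the p200 family (chr1:173962568-173982744), stood at 224, 153, and 160 in NZB, at 0 in each NZW mouse, and at 107, 90.04, and 70.5 in NZBWF1. It was at least 22.1-fold higher in NZB than in NZW (edgeR adjusted p = 1.14e-06) and at least 10.4-fold higher in NZBWF1 than in NZW (edgeR adjusted p = 0.000182).

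Mndal, a p200 gene next to Ifi202b (chr1:173849126-173942491), went the other way. It stood at 17.9, 65.7, and 28.2 in NZB, 173, 83.8, and 185 in NZW, and 107, 80.0, and 70.5 in NZBWF1 (log2 NZB over NZW -1.99, SE 0.46, edgeR adjusted p = 0.0184). In the cells with few UMIs of other lineages the difference was -1.90 (edgeR adjusted p = 0.0555). Leaving out NZB replicate 1 or 3, or NZW replicate 1 or 3, ended the call of Mndal, with edgeR adjusted p between 0.11 and 0.154. Apobec3, a cytidine deaminase that restricts retroviruses, stood at 241, 361, and 422 in NZB, 102, 107, and 148 in NZW, and 322, 215, and 178 in NZBWF1. Every NZB mouse was above every NZW mouse, where 15.3% of all tested genes separated these strains in either direction (log2 difference 1.53, SE 0.29, edgeR adjusted p = 0.00212). Psmb8, an immunoproteasome subunit and the other most abundant member of the list beside Ifitm2, was not called.

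Ifitm2, a membrane protein that blocks virus entry (chr7:140954837-140955987), separated the parents further in the cells with few UMIs of other lineages. Over all members it stood at 98.4, 328, and 75.1 CPM in NZB, 1629, 1783, and 1516 in NZW, and 686, 890, and 817 in NZBWF1 (log2 NZB over NZW -3.33, SE 0.45, edgeR adjusted p = 0.00896). In the cells with few UMIs of other lineages it stood at 0, 21.1, and 0 in NZB, 1861, 2063, and 1622 in NZW, and 786, 919, and 593 in NZBWF1. The NZB cells then held 1 UMI in all, against 382 in NZW and 241 in NZBWF1. NZW exceeded NZB by a ratio of 419 (95% counting interval 74.8 to 16607), NZBWF1 exceeded NZB by 178 (31.7 to 7062), and NZBWF1 fell below NZW by 1.31 on the log2 scale (edgeR adjusted p = 3.93e-06), all of them called. Over all members neither difference of NZBWF1 was called, at 2.29 against NZB (edgeR adjusted p = 0.159) and -1.05 against NZW (edgeR adjusted p = 0.639). Over all members, leaving out NZB replicate 1 or NZBWF1 replicate 1 ended the call between the parents (edgeR adjusted p = 0.0548 and 0.0504).

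**Figure D3:**
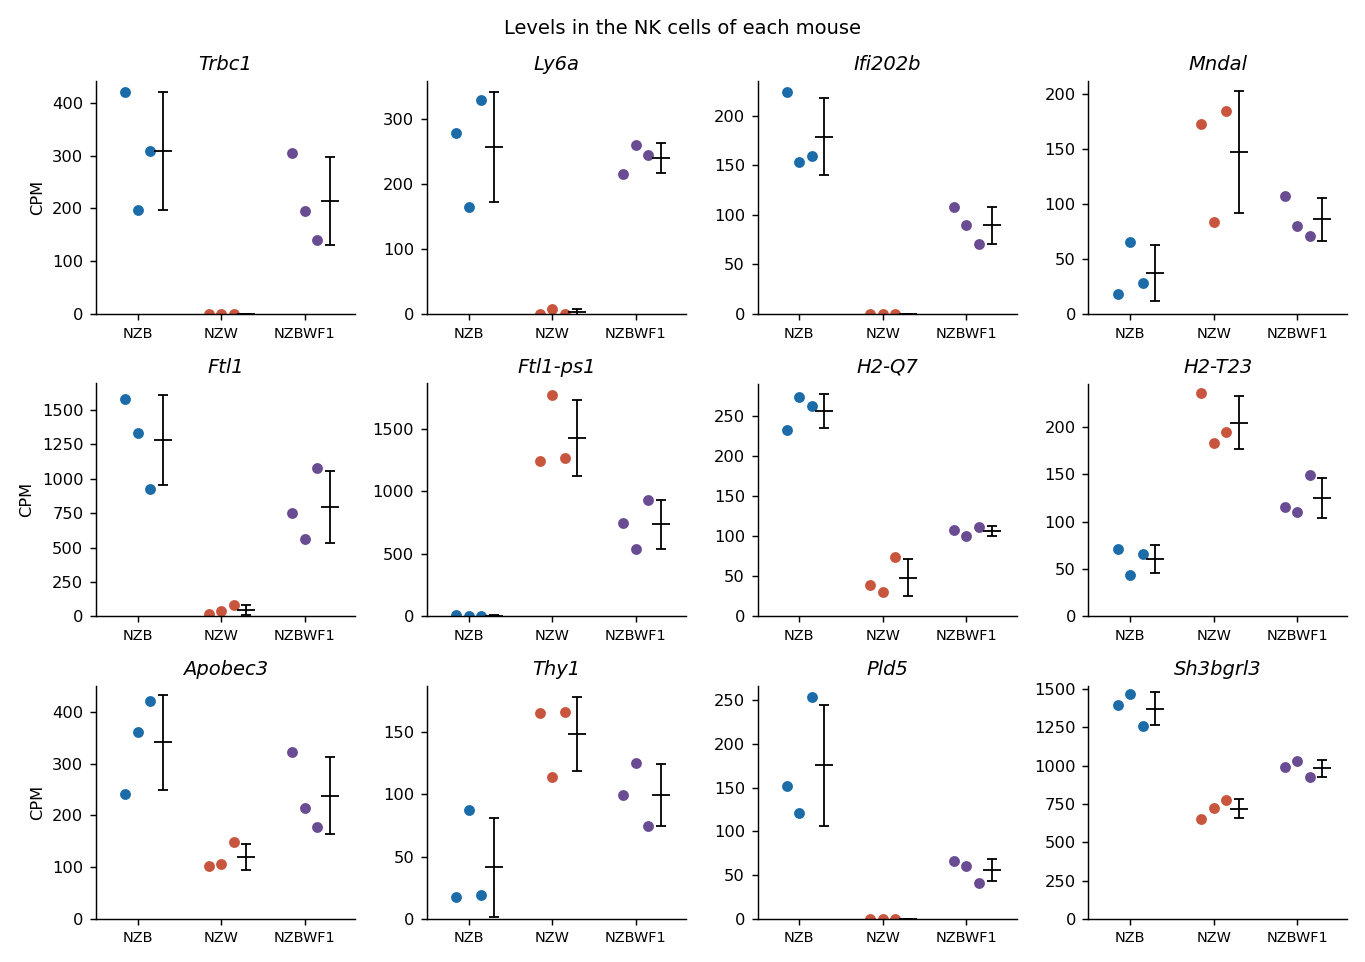
Level in NK cells (vertical axis, CPM) of 12 genes in NZB, NZW, and NZBWF1, each point 1 mouse and each bar the mean with its SD (n = 3 mice). Trbc1, Ifi202b, and Pld5 are at 0 in the 3 NZW mice, Ftl1-ps1 is at or near 0 in NZB, and the NZBWF1 means lie between those of the parents.

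MHC class I genes, whose products are the ligands of many NK receptors, moved apart. Of 6 tested genes 1 was higher and 2 were lower in NZB than in NZW (0.614% of all tested genes each way), and the median log2 difference was -0.22. H2-Q7 (Qa-2, chr17:35439155-35443773) stood at 233, 274, and 263 CPM in NZB, 39.3, 30.5, and 73.9 in NZW, and 107, 100, and 112 in NZBWF1 (log2 NZB over NZW 2.44, SE 0.33, edgeR adjusted p = 1.95e-05). NZBWF1 fell below NZB by 1.26 on the log2 scale (SE 0.27, edgeR adjusted p = 0.0333). H2-T23 (Qa-1, the ligand of CD94-NKG2 receptors) stood at 71.6, 43.8, and 65.7 in NZB, 236, 183, and 194 in NZW, and 116, 110, and 149 in NZBWF1, with no overlap among the strains (log2 NZB over NZW -1.72, SE 0.33, edgeR adjusted p = 0.00231). H2-T22, also a nonclassical class I gene, was lower in NZB as well (-1.87, SE 0.47, edgeR adjusted p = 0.0427). In the cells with few UMIs of other lineages H2-T22 was not called, at 33.1, 63.4, and 45.0 in NZB and 59.1, 174, and 171 in NZW. Leaving out any NZB mouse, NZW replicate 3, or NZBWF1 replicate 2 or 3 ended the call of H2-T22 (edgeR adjusted p between 0.0539 and 0.187), and leaving out any NZB mouse or NZBWF1 replicate 2 or 3 ended that of H2-Q7 in NZBWF1 against NZB (0.0676 to 0.242). The classical gene H2-K1 was not called over all members (-0.39, edgeR adjusted p = 0.321), but stood lower in NZB in the cells with few UMIs of other lineages (-0.62, edgeR adjusted p = 0.00498). MHC genes vary between strains and have close relatives, so their counts are uncertain.

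Of the genes of NK maturation, Thy1 and Ly6c2 were called. Thy1, a surface protein of lymphoid precursors, stood at 17.9, 87.6, and 18.8 CPM in NZB, 165, 114, and 166 in NZW, and 99.2, 125, and 74.6 in NZBWF1 (log2 NZB over NZW -1.89, SE 0.47, edgeR adjusted p = 0.0335, and -2.15 with an edgeR adjusted p of 0.00498 in the cells with few UMIs of other lineages). It was the single call among 8 tested genes of immature NK cells, against 1.23% of all tested genes. Leaving out NZB replicate 1 or 3, or NZW replicate 1 or 3, ended it over all members, with edgeR adjusted p between 0.11 and 0.287. Ly6c2, a surface protein of mature NK cells and of monocytes (chr15:75108158-75111970), stood at 35.8, 11.0, and 9.39 in NZB, 150, 107, and 370 in NZW, and 107, 165, and 178 in NZBWF1. It was called between NZB and NZW (log2 difference -3.32, SE 0.60, edgeR adjusted p = 0.00401) and between NZBWF1 and NZB (2.94, SE 0.61, edgeR adjusted p = 0.0489). The latter call ended without NZB replicate 2 or 3 or NZBWF1 replicate 2 or 3 (edgeR adjusted p between 0.141 and 0.292). In the cells with few UMIs of other lineages it held 1, 13, and 24 UMIs in NZB, NZW, and NZBWF1 and did not pass the filter on low counts. The part of monocyte RNA in these values was not tested. Over all members the summed monocyte markers were between 2254 and 4400 CPM in NZB, 1220 and 2965 in NZW, and 895 and 1397 in NZBWF1.

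Shares of cells with at least 1 UMI of 7 genes of maturation, division, and killing were compared after each cell was thinned to 1000 UMIs. Cd27, a receptor of earlier NK stages, was detected in 10.9%, 5%, and 10.2% of the NK cells of the NZB mice, 14.0%, 15.3%, and 13.2% in NZW, and 3.57%, 7.79%, and 9.88% in NZBWF1. Every NZW mouse was above all others, but the difference among strains did not pass the correction over the 7 genes (p = 0.05, exact permutation over 280 partitions, adjusted 0.175). Ly6c2 was detected in 0 of 144 thinned NK cells pooled over the NZB mice, which allows up to 2.08% of such cells to hold a UMI by counting error alone, in 7.02%, 6.78%, and 13.2% in NZW, and in 10.7%, 7.79%, and 8.64% in NZBWF1 (p = 0.0357, exact permutation, adjusted 0.175). Without thinning, the mean shares of Ly6c2 were 2.12%, 13.1%, and 9.89% (p = 0.00357, the smallest that the 280 partitions allow in this exact permutation test, adjusted 0.0250). B cells, which should lack Ly6c2, held it in 5.17% of thinned and 10.1% of unthinned cells at a median depth of 1951 UMIs against 1618 in NK cells. Among thinned cells, the NZB mice were below the level of B cells and each NZW and NZBWF1 mouse was above it, whereas without thinning, where the test passed, the NZBWF1 mean was below that of the deeper B cells. The level of B cells was pooled over the strains. It is therefore no background for the NK cells of a given strain. Itgam (CD11b) was at 3.23% in NK cells and 3.44% in B cells, so it was read as background. The shares of Klrg1, Mki67, Gzmb, and Prf1 were 2.09%, 12.5%, 5.69%, and 21.4%, and none of them, nor that of Itgam, passed (adjusted p between 0.855 and 0.911, exact permutation).

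Genes outside the lists also separated the parents. Pld5, a member of the phospholipase D family (chr1:175962306-176275312), stood at 152, 120, and 253 CPM in NZB, at 0 in each NZW mouse, and at 66.1, 60.0, and 41.5 in NZBWF1. It was at least 21.7-fold higher in NZB than in NZW (edgeR adjusted p = 3.59e-06) and at least 6.52-fold higher in NZBWF1 than in NZW (edgeR adjusted p = 0.00653), and NZBWF1 fell below NZB by 1.71 on the log2 scale (edgeR adjusted p = 0.0489). This last call ended without NZB replicate 1 or 3 or NZBWF1 replicate 2 or 3 (edgeR adjusted p between 0.137 and 0.787). Tpm3-rs7, a tropomyosin-related sequence, stood at 188, 153, and 178 in NZB, 0, 7.62, and 0 in NZW, and 140, 115, and 108 in NZBWF1 (ratio of NZB to NZW 63.9, 95% counting interval 11.0 to 2570, edgeR adjusted p = 1.14e-06). The predicted gene Gm42031 had the same order, with 1 UMI in NZW (ratio 67.4, interval 11.6 to 2710, edgeR adjusted p = 2.62e-06). The predicted gene Gm2682 had the reverse order, with 1 UMI in NZB (ratio of NZW to NZB 45.6, interval 7.85 to 1836, edgeR adjusted p = 6.59e-05).

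Further calls were found outside the lists. Sh3bgrl3 stood at 1395, 1467, and 1258 CPM in NZB, 653, 724, and 776 in NZW, and 992, 1030, and 925 in NZBWF1 (log2 NZB over NZW 0.94, SE 0.16, edgeR adjusted p = 0.00033), without overlap among the 3 strains. Hspa8, a constitutive chaperone, was higher in NZB by 0.78 (SE 0.14, edgeR adjusted p = 0.000729), and Hjurp, the chaperone of the centromeric histone, by 1.99 (SE 0.34, edgeR adjusted p = 0.000376). The mitochondrial mt-Nd1 stood at 1592, 1368, and 1239 in NZB, 2998, 2919, and 2976 in NZW, and 1983, 1801, and 2036 in NZBWF1 (-1.08, edgeR adjusted p = 2.46e-06), and mt-Co1 was lower in NZB too (-0.59, edgeR adjusted p = 0.000282). The median mitochondrial share of an NK cell had the same order without overlap, at 3.95% to 4.26% in NZB, 4.63% to 4.79% in NZBWF1, and 5.02% to 5.12% in NZW, and its part in these results was not tested. Of the ribosomal protein genes, Rps3a1 was higher in NZB (1.13, edgeR adjusted p = 5.62e-08) and Rps2 and Rpl21 were lower (-1.19 and -1.0, edgeR adjusted p = 3.58e-07 and 7.91e-06). These 3 have many near-identical copies, so their counts are uncertain. Arl4d, one of the 15 genes with the greatest ratio to other marrow cells, stood at 26.8, 11.0, and 28.2 in NZB, 244, 160, and 203 in NZW, and 132, 85.0, and 58.1 in NZBWF1 (-3.11, SE 0.46, edgeR adjusted p = 5.93e-05). Wdr89 was lower in NZB (-2.66, SE 0.51, edgeR adjusted p = 0.00217).

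Some calls were lost without the cells with RNA of other lineages. Iglc2, a lambda light chain constant region made by B and plasma cells, stood at 0, 32.8, and 28.2 CPM in NZB, 63.0, 45.7, and 18.5 in NZW, and 132, 200, and 245 in NZBWF1, and was called in NZBWF1 against NZB (log2 difference 3.29, SE 0.52, edgeR adjusted p = 0.00110), against NZW (2.17, SE 0.41, edgeR adjusted p = 0.00589), and against the mean of the parents (2.73, SE 0.37, edgeR adjusted p = 7.95e-05). In the cells with few UMIs of other lineages it held 2 UMIs in NZB and 0 in NZW and NZBWF1, while over all members the summed B-cell markers reached 11044 and the plasma-cell markers 3251 CPM in an NZBWF1 mouse. Hp (haptoglobin), which was higher in NZB than in NZW over all members (1.36, SE 0.31, edgeR adjusted p = 0.0222), held 1, 1, and 0 UMIs in these cells. Over all members the summed neutrophil markers were between 33718 and 63157 CPM in NZB, 6128 and 41622 in NZW, and 19308 and 33038 in NZBWF1, and their part in the difference of Hp was not tested. Lgals3 (galectin-3) stood at 349, 460, and 244 in NZB, 393, 381, and 601 in NZW, and 157, 200, and 187 in NZBWF1, and was lower in NZBWF1 than in NZW (-1.31, SE 0.25, edgeR adjusted p = 0.00589) and than the mean of the parents (-1.13, SE 0.23, edgeR adjusted p = 0.0135). In the cells with few UMIs of other lineages its log2 difference was of the same size against NZW, at -1.40 (SE 0.41, edgeR adjusted p = 0.178), and -0.52 against the mean of the parents (SE 0.41, edgeR adjusted p = 0.976). NZB was the lowest strain in these cells, called below NZW (-1.77, SE 0.47, edgeR adjusted p = 0.0499), and the difference of NZBWF1 from NZB was 0.37 (SE 0.52, edgeR adjusted p = 0.956). Over all members, leaving out NZW replicate 3 ended the calls of Hp (edgeR adjusted p = 0.15), of Iglc2 against NZW (0.0622), and of Lgals3 against NZW (0.0665). Leaving out NZBWF1 replicate 3 ended that of Iglc2 against NZW (0.105) and of Lgals3 against the mean of the parents (0.0652), and leaving out NZB replicate 2 that of Hp (0.173).

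**Figure D4:**
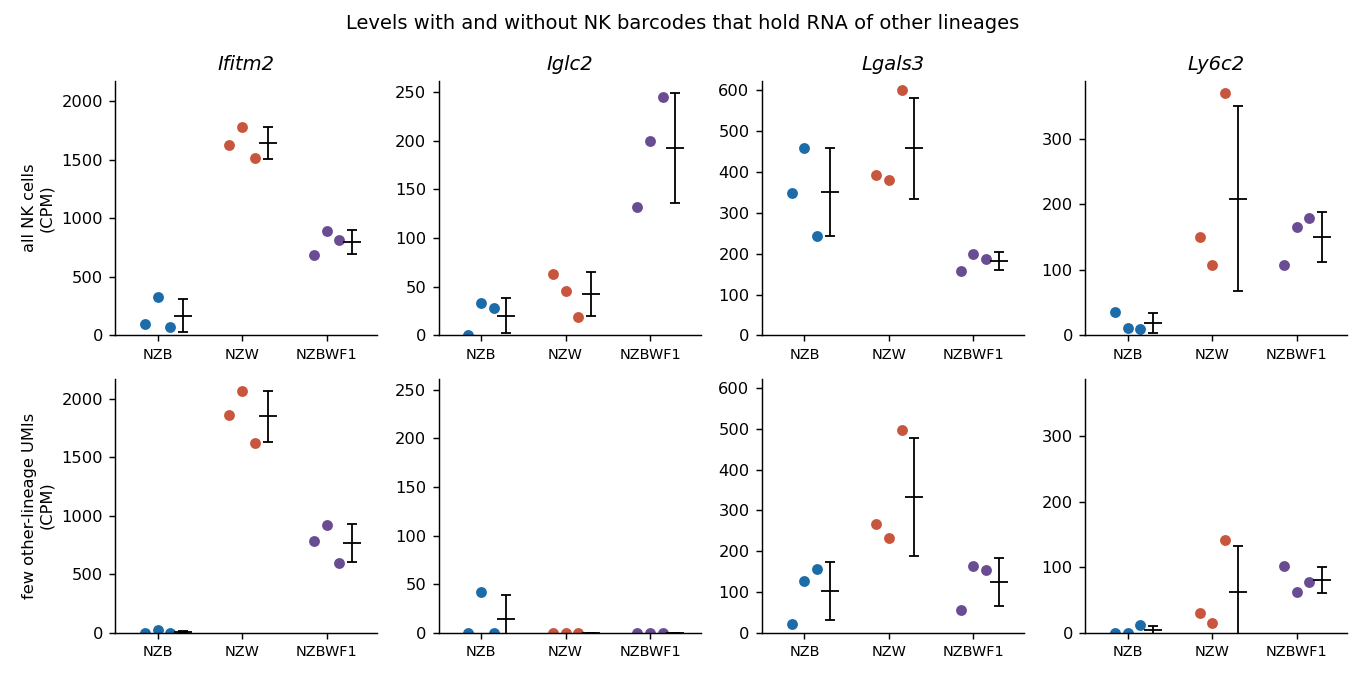
Level (vertical axis, CPM) of Ifitm2, Iglc2, Lgals3, and Ly6c2 by strain, each point 1 mouse and each bar the mean with its SD (n = 3 mice). The top row holds all 527 NK cells and the bottom row the 400 cells with few UMIs of other lineages, in which Iglc2 is at 0 in 8 of 9 mice and Ifitm2 is at or near 0 in NZB.

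Further calls appeared in the cells with few UMIs of other lineages, and the genes of this paragraph were picked after their values had been seen. Ly6e, a surface antigen of the same family as Ly6a, stood at 44.1, 148, and 33.7 CPM in NZB, 650, 654, and 555 in NZW, and 478, 288, and 296 in NZBWF1. Its log2 difference was -3.28 between NZB and NZW (SE 0.37, edgeR adjusted p = 7.01e-09) and 2.42 between NZBWF1 and NZB (edgeR adjusted p = 8.6e-05), whereas over all members the former was -1.95 (edgeR adjusted p = 0.0737). Slamf6, a SLAM receptor, stood at 110, 84.5, and 33.7 in NZB, 281, 131, and 356 in NZW, and 79.7, 101, and 87.8 in NZBWF1, and was lower than in NZW both in NZB (-1.76, edgeR adjusted p = 0.00579) and in NZBWF1 (-1.53, edgeR adjusted p = 0.0229). Klrb1f was lower in NZB than in NZW (-1.24, edgeR adjusted p = 0.0179), as was Trbc2 (-1.42, edgeR adjusted p = 0.00498). Xcl1, a chemokine that attracts dendritic cells, stood at 826, 444, and 326 in NZB, 473, 654, and 669 in NZW, and 171, 327, and 231 in NZBWF1. It was lower in NZBWF1 than in NZW (-1.31, edgeR adjusted p = 0.0229) and than the mean of the parents (-1.23, edgeR adjusted p = 0.0273), with differences of -1.19 and -1.22 over all members that did not pass (edgeR adjusted p = 0.546 and 0.470).

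The cross stood between its parents. For 28 of the 28 genes called between NZB and NZW, the NZBWF1 mean lay between the parental means, at a median of 47.1% of the way from NZW to NZB. It was nearest NZW for Hp, at 4.83% of the way, and nearest NZB for Ly6a, at 93.4%, and 12 of the 28 genes were nearer to NZB. Since these genes were chosen for the distance between the parents, the count is a description. By position, 4 of the 28 genes lay on chromosome 1 (Hjurp, Ifi202b, Mndal, and Pld5), 4 on chromosome 15 (Apobec3, Gm2682, Ly6a, and Ly6c2), and 4 on chromosome 17 (H2-Q7, H2-T22, H2-T23, and Rps2). The share of all tested genes on each chromosome is not given here, so these counts too are a description.

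A part of the NK cells was dividing. With cells thinned to 1000 UMIs, 87 of 527 NK cells (16.5%) held at least 2 UMIs of 11 mitosis genes, against 24 of 708 T cells (3.39%) and 32.2% of all kept cells. The T cells were limited to few UMIs of other lineages, which the 527 NK cells were not, and can include cells that resemble NK cells. Dividing cells took 9.09%, 25%, and 20.4% of the NK cells in NZB, 10.53%, 18.6%, and 11.3% in NZW, and 5.36%, 22.1%, and 23.5% in NZBWF1. The mice of each strain spread widely, with means of 18.2 ± 8.19%, 13.5 ± 4.48%, and 16.96 ± 10.08% (SD, n = 3), and all strains overlapped. Over all members, none of 24 tested genes of the cell division list was called between strains by edgeR or DESeq2. For NZB against NZW, 1 (4.17%) and 3 (12.5%) had an unadjusted p below 0.05, where 9.51% of all tested genes did with edgeR. Among the cells with few UMIs of other lineages, 53 of 400 (13.3%) were dividing, and of 20 tested genes of the list Rrm2, a subunit of ribonucleotide reductase, was called higher in NZBWF1 than in NZW (2.38, SE 0.56, edgeR adjusted p = 0.0229, against 0.65 and 0.935 over all members). By doublet score, 32 of the 527 cells were among the barcodes with the highest scores of their library.

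Dividing and other NK cells were set side by side among the 400 cells with few UMIs of other lineages, as a description. Dividing cells held a mean of 3728 UMIs against 1567 in the others, so that most genes had more UMIs per cell. Ccl5, Gzma, Klre1, and Ncr1 are genes of the membership rule. Its minimum counts ask for a greater share of the UMIs of a shallow cell than of a deep one. The part of the rule in the ratios of these genes was not tested. Ccl5 was an exception, with 2.64 UMIs per dividing cell against 8.86 in the others, lower in 8 of 9 mice per cell and in 9 of 9 by CPM. Ctla2a, a protease inhibitor, was lower as well, at 0.642 against 1.26 UMIs per cell, in 8 of 9 mice. Gzma had 2.06-fold more UMIs per dividing cell, and Klre1 and Klra7 had 2.39-fold and 2.29-fold more. By CPM, which divides out the depth, the ratios were 0.865 for Gzma (lower in 7 of 9 mice), 1.0 for Klre1, and 0.962 for Klra7, so these genes were not higher in dividing cells relative to their total, and that of Ccl5 was 0.125. Per cell, Ncr1 stood at a ratio of 1.35, Klra4 at 1.10, and Klra8 at 0.752. By CPM all of them were lower in dividing cells, at 0.565 (in 8 of 9 mice), 0.460 (8 of 9), and 0.316 (7 of 9). These tallies over mice rest on few dividing cells, with 4, 8, and 8 in the NZB mice, 2, 6, and 4 in NZW, and 1, 12, and 8 in NZBWF1. The share of all genes that were lower in as many mice is not given here. Gzmb (0.609) and Tgfbr2 (0.374) rested on 4 and 2 UMIs in dividing cells.

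**Figure D5:**
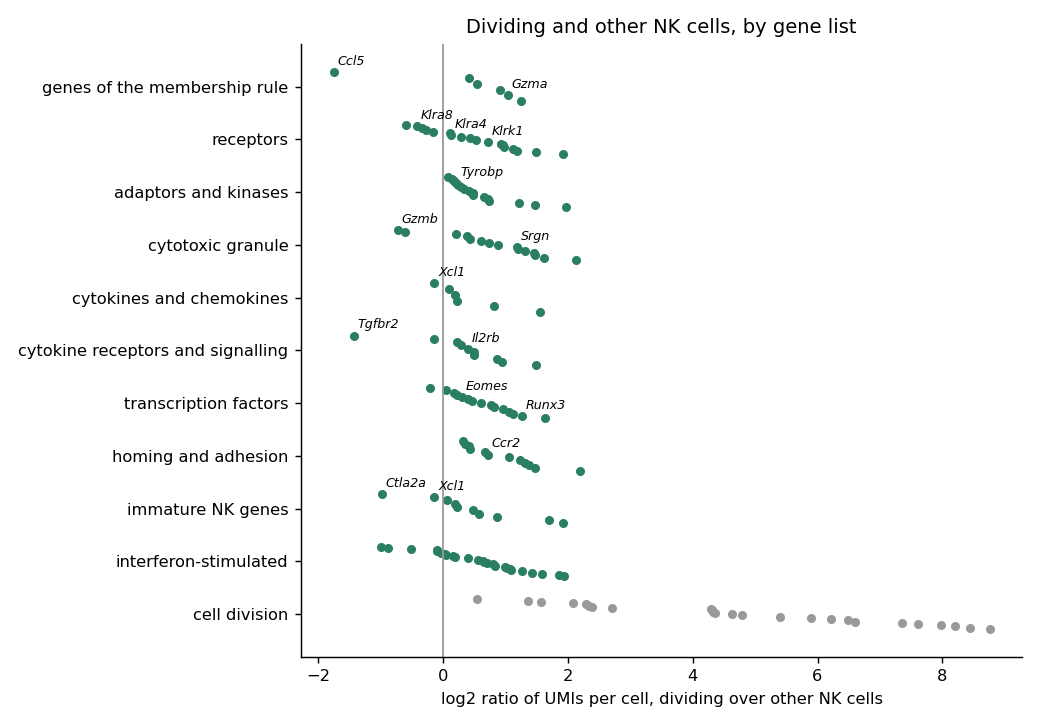
Ratio of UMIs per cell between dividing and other NK cells (horizontal axis, log2) among the 400 cells with few UMIs of other lineages, each point 1 gene, by gene list. Genes without a UMI in either set of cells are left out, and points are offset vertically for legibility. Dividing cells held more UMIs in all, so genes at equal CPM lie right of 0. Ccl5 lies left of 0 at a ratio of 0.298 and Gzma right of it at 2.06, and both belong to the membership rule. The cell division genes (grey) include those that defined the dividing cells.

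Whether the strain differences were particular to NK cells was tested as the difference between NK cells and the other marrow cells of the same mice, for the 46 genes that could be tested among those named for a small p, for membership in a list, or by the study. The other marrow cells are a mixture of cell types. A change in NK cells cannot be told from a change in the makeup of that mixture. It includes the 477 barcodes that met the rest of the rule but held Cd3 UMIs, of which 58.1% held Ncr1. Of these barcodes 166 came from NZB, 120 from NZW, and 191 from NZBWF1, and their part was not tested. Between NZB and NZW, 1 of 46 genes passed in this comparison, against 0.482% of all tested genes. It was H2-K1, whose log2 difference was lower in NK cells by 0.81 (edgeR adjusted p = 0.00249) and by 1.09 in the cells with few UMIs of other lineages (edgeR adjusted p = 4.69e-08). In the other marrow cells it was higher in NZB, by 0.45. The call was kept without each mouse in turn and ended with free RNA subtracted (-0.66, edgeR adjusted p = 0.215). That setting used an estimate of 7.32% to 47.3% of UMIs for NK cells and 0.328% to 1.27% for the comparison cells. Such unequal subtraction cannot decide the part of free RNA. Between NZBWF1 and NZW, 2 genes passed (0.351% of all genes), Il2rb, the receptor subunit for interleukins 2 and 15 (-1.13, edgeR adjusted p = 0.0137), and Lgals3 (-1.24, edgeR adjusted p = 0.0131). The difference of Il2rb within NK cells was -0.09 (edgeR adjusted p = 0.979). Its call ended without NZW replicate 2 or 3 or NZBWF1 replicate 1 or 3 (edgeR adjusted p between 0.0940 and 0.218), and that of Lgals3 without NZW replicate 2 or 3 or any NZBWF1 mouse (0.0590 to 0.203). With free RNA subtracted both ended at differences of -1.08 and -1.84 (edgeR adjusted p = 0.910 and 0.760), and in the cells with few UMIs of other lineages that of Lgals3 ended (-1.37, edgeR adjusted p = 0.247). Between NZBWF1 and NZB (0.175%) and against the mean of the parents (0.0877%), the single gene was Iglc2. Its call against NZB ended without NZB replicate 1 or NZBWF1 replicate 3 (edgeR adjusted p = 0.212 and 0.167), and that against the mean of the parents ended without any 1 of 7 mice (NZB replicate 1 or 3, NZW replicate 2 or 3, or any NZBWF1 mouse, 0.0515 to 0.515). Both ended with free RNA subtracted (edgeR adjusted p = 0.468 and 0.796) and turned in sign, without passing, in the cells with few UMIs of other lineages (edgeR adjusted p = 0.626 and 1), where Iglc2 held 2 UMIs in all. With the NK cells with few UMIs of other lineages, 9 of the 46 genes passed between NZB and NZW (2.28% of all genes), namely H2-D1, H2-K1, Ifitm2, Itgb1, Lgals3, Psmb8, Thy1, Trbc2, and Tyrobp. Ifitm2 passed with these cells in the comparisons of NZBWF1 too. Between NZBWF1 and NZW, H2-K1 and Il2rb passed as well, where 9 of 2281 genes did. For Ftl1, Ftl1-ps1, Trbc1, and Ifi202b a difference from the rest of the marrow was detected with neither set of NK cells.

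Against T cells, Ly6a stood apart. A first class of 1845 T cells by Cd3 genes gave 25, 6, 12, and 3 of 46 named genes in the 4 comparisons (20.8%, 1.80%, 7.01%, and 0.132% of all genes tested), but 946 of these cells held more than 50 UMIs of S100a8 and S100a9. They were 41 of 308 cells in NZB, 629 of 832 in NZW, and 276 of 705 in NZBWF1. With 708 T cells defined instead by Cd3e or Cd3g, a T-cell receptor transcript, and few UMIs of other lineages, the counts were 2, 1, 1, and 2 (0.219%, 0.0438%, 0.175%, and 0.0877% of all genes), and the genes were Ly6a and Ifitm2. Both T-cell classes can hold cells that resemble NK cells but carry Cd3 UMIs, and the part of such cells was not tested. Ly6a differed between NZB and NZW by 1.66 in these T cells (edgeR adjusted p = 4.71e-06), where NZW NK cells held a single UMI, and the difference between the cell types passed for NZB against NZW (edgeR adjusted p = 0.00041) and NZBWF1 against NZW (edgeR adjusted p = 2.42e-05). In the NK cells with few UMIs of other lineages these adjusted p were 0.00102 and 0.000105. With those cells Ctla2a passed as well between NZB and NZW, where 15 of 2281 genes did. Ifitm2 passed with all NK cells but not with the cells with few UMIs of other lineages (edgeR adjusted p = 0.974 between NZB and NZW).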

How the data were processed

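The deposited values were UMI counts per gene and barcode, which the authors made with Cell Ranger 3.1.0 (bcl2fastq 2.20, build mm10) and merged over 9 libraries. No normalization was applied to the counts, and whether merging thinned libraries to equal depth, and which annotation was used, are not given in the sources used here. Mice were read from the number after each barcode, assumed to follow the order of the list of merged libraries as Cell Ranger numbers them. Genes numbered 31053, of which 35 symbols were repeated.

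The quality limits were those of the study. Doublets were kept, with their removal as an alternative. UMIs were summed per mouse and tested with edgeR 4.0.16 (TMM, filterByExpr, robust quasi-likelihood, R 4.3.3) in 1 fit over the 3 strains, with Benjamini-Hochberg correction over all genes tested. Levels are CPM over a mouse's NK cells. They rest on counts of the 3′ end and need no correction for length. Intervals and floors cover counting error only. Shares were compared by exact permutation of mice (scipy 1.17.1). On simulated data for NZB against NZW (2281 genes), 44 of 200 genes changed by a log2 of 1 were recovered, with 5 others called, and 176 of 200 changed by a log2 of 2, with 6 others. Differences between cell types were fitted with a term for mouse and an interaction.

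Named genes were those of the membership rule, the 8 of smallest p per comparison, list members that were called, the 2 most abundant members per list, 5 genes that the study names for NK cells, and the 15 most specific to NK cells at 100 CPM or more. The first and last of these are a description, and tests between cell types were read for the others. Members, lists, and rules were chosen with earlier results of these data known. The values of 1 gene are not reported or plotted here.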

Additional observations from a re-analysis of the deposited data

Results flagged for a closer look

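Some strain differences in NK cells stood apart from those in the other marrow cells of the same mice by a test of the difference itself (edgeR quasi-likelihood, Benjamini-Hochberg). Positive log2 values mean that the first strain stood higher in NK cells relative to the comparison cells. Against the other marrow cells, H2-K1 differed by -0.81 for NZB against NZW. In NZBWF1, Iglc2 differed by 2.70 against NZB and by 1.72 against the parental mean. For NZBWF1 against NZW, Il2rb differed by -1.13 and Lgals3 by -1.24. Within NK cells Il2rb averaged 739 CPM in NZW and 713 in NZBWF1, so its value came mainly from the other marrow cells. These are a mixture of cell types that includes the 477 barcodes with Cd3 UMIs that met the rest of the rule. The part of the makeup of this mixture in each strain was not tested. Iglc2 held 2 UMIs in the 400 cells with few UMIs of other lineages, and the part of B-cell RNA in its values was not tested further.

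Against T cells defined by Cd3 genes, of which 946 of 1845 held more than 50 UMIs of S100a8 and S100a9, more named genes differed. Such cells were unequal among the strains, at 41 of 308 in NZB, 629 of 832 in NZW, and 276 of 705 in NZBWF1. Their part in the values below was not tested. For NZB against NZW the values were -1.54 for Apobec3, -1.43 for H2-Q7, -1.66 for H2-T22, -1.48 for Ifitm2, 2.97 for Ly6a, and -2.77 for Thy1. Among genes with near-identical copies or of the mitochondrion they were -0.63 for Rpl21, -0.50 for Rps2, -0.70 for Rps3a1, and -0.84 for mt-Nd1. For NZBWF1, Iglc2 differed by 3.18 against NZB, 1.78 against NZW, and 2.48 against the mean of the parents. Ly6a differed by 4.22 against NZW and by 2.73 against the mean of the parents, Rps3a1 by -0.61 against NZW, and Lgals3 by -1.20 against the mean of the parents. NZW NK cells held 1 UMI of Ly6a, so its fitted values depend on the prior count and are no measure of size, and the mean of the parents, taken on the log scale, lies near the floor. With 708 T cells defined by Cd3e or Cd3g, a T-cell receptor transcript, and few UMIs of other lineages, Ly6a kept its call in the comparisons of NZB with NZW, NZBWF1 with NZW, and NZBWF1 with the mean of the parents. Between all NK cells and these T cells, Ly6a and Ifitm2 were the only named genes that passed, so the other genes above lost their calls. Both T-cell classes can hold cells that resemble NK cells but carry Cd3 UMIs.

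Among barcodes that were not called as cells, 36 met the marker rule for NK cells. They held a median of 360 and at most 470 UMIs, so all of them were below the limit of 1000 UMIs.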

How the results depend on the processing

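The gene results that passed the threshold numbered 54. Of 1222 alternatives in which the gene could be tested, 1057 kept the call, 165 kept the direction without passing the threshold, and 0 reversed. Among these, the call was kept in 434 of 485 fits that left out 1 mouse. Genes untested in a setting are not counted. Without cells that held 3 UMIs of other lineages, 22 results kept the call, 3 did not pass, and the rest of the 54 were untested. Without the filter on low counts NZB against NZW gave 70 calls in place of 28. NZBWF1 gave 27 in place of 8 against NZB, 27 in place of 12 against NZW, and 19 in place of 6 against the parental mean, with 12674 genes tested. With the cells with few UMIs of other lineages the first became 45, and 45 with free RNA also subtracted. NZBWF1 against NZB became 4 with free RNA subtracted, 5 without doublets, 5 without cells that held 3 UMIs of other lineages, 2 at a limit of 5% mitochondrial UMIs, 4 at 2000 UMIs and 1000 genes, and 5 with 1 Cd3 UMI allowed. NZBWF1 against NZW became 6 with free RNA subtracted, 6 at the mitochondrial limit, and 4 at 2000 UMIs, and the mean of the parents gave 1 at 2000 UMIs. The stricter limits leave fewer cells and genes, and for the other settings the cause was not tested. DESeq2 called 27, 9, 9, and 9 genes.

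Leaving out 1 mouse gave 25 to 40 genes for NZB against NZW, and for NZBWF1 4 to 14 against NZB, 8 to 17 against NZW, and 5 to 12 against the parental mean. Counts moved by more than 1.5 times in NZBWF1 against NZB without NZB replicate 3 (4), NZBWF1 replicate 1 (14), replicate 2 (4), or replicate 3 (4), and for the mean of the parents without NZBWF1 replicate 1 (12). The cause was not tested.

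Replicate numbers did not pair the mice. Deviations of same-numbered mice correlated between -0.11 and 0.16, with 3 of 9 pairs above 0.1, and 3 of 9 mice matched their own number best. With a replicate block, 32, 8, 11, and 8 genes were called, and 51 of the 54 gene results kept their call. The share of NK cells gave a blocked p of 0.278 among strains and 0.296 against the parents (exact permutation, 216 regroupings within numbers). Over 23 alternatives the p of the share was between 0.179 and 0.746 among strains and between 0.0893 and 0.893 against the parents. The share of cells with Ly6c2 passed without thinning (F = 74.0, adjusted p = 0.0250, exact permutation).

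Differences between NK and T cells called 15, 1, 6, and 1 named genes with free RNA subtracted (10.1%, 0.0877%, 3.33%, and 0.0438% of all genes), in place of 25, 6, 12, and 3. With T cells by Cd3 and T-cell receptor genes they called 2, 1, and 1 in the first comparisons, and 2, 0, 1, and 1 with the NK cells with few UMIs of other lineages as well. Against the other marrow cells, the latter cells called 9 genes between NZB and NZW in place of 1 (2.28% against 0.482% of all genes, H2-D1, H2-K1, Ifitm2, Itgb1, Lgals3, Psmb8, Thy1, Trbc2, and Tyrobp), and subtracting free RNA left 0 for NZBWF1 against NZW. Leaving out 1 mouse gave 1 to 5 genes for NZB against NZW (5 without NZB replicate 2, and 2 without NZB replicate 3, NZW replicate 1, or NZBWF1 replicate 1 or 2) and 0 to 2 for NZBWF1 against NZB (0 without NZB replicate 1 or NZBWF1 replicate 3, 2 without NZB replicate 2 or 3). It gave 0 to 3 for NZBWF1 against NZW (0 without NZW replicate 2 or 3, 1 without NZBWF1 replicate 3, 3 without NZB replicate 2) and 0 to 2 for the mean of the parents (0 without NZB replicate 1, NZW replicate 2 or 3, or NZBWF1 replicate 1 or 2, and 2 without NZB replicate 2 or NZW replicate 1).

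The estimate of free RNA from marker genes came to 7.32% to 47.3% of a mouse's NK UMIs over all members, where cells with RNA of other lineages raise it so that it is no share of free RNA, and to 0.328% to 1.27% in the cells with few UMIs of other lineages. In the tests between cell types, the higher estimate was subtracted from NK cells and the lower from the comparison cells. Those fits cannot decide the part of free RNA. With 40 to 81 cells per mouse, most changes of 2-fold were not detectable, and genes below the filter were not tested.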

Other observations

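Barcodes that met the marker rule without the quality limits numbered 913, and 386 of them failed a limit, 381 on UMIs. Of the kept barcodes, 2 NK barcode sequences also occurred in another library, and 170 sequences did so among all kept barcodes.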
